A study of Drosophila melanogaster with 2 samples.

Results

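The 10 glycolytic enzyme genes described here are Hex-A, Pgi, Pfk, Ald1, Tpi, Gapdh1, Gapdh2, Pgk, Pglym78 and Eno of Drosophila melanogaster, out of 13945 protein-coding genes in the annotation. They were selected on a measured value at a single gene. The peak of the transcription factor Fer2 at the Gapdh2 promoter ranked 11 in the list of reproducible peaks, inside the 20 strongest, and the other genes were added because they encode enzymes of the same pathway. The next gene in strength was Eno, outside the 20 strongest at rank 92. A peak was given to a gene when its summit fell inside the gene or at most 2 kb from either end, and a peak can count for neighbouring genes as well.

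The binding of Fer2, a basic helix-loop-helix factor, was mapped by chromatin immunoprecipitation and sequencing (ChIP-seq) in whole embryos aged 6 to 24 h. The embryos came from a transgenic line with green fluorescent protein (GFP) fused to the C terminus of Fer2, and an antibody against GFP was used on chromatin sonicated to 200 to 800 bp. There were 2 biological replicates by the labels, numbered 2 and 3, in 1 group, with no other genotype, treatment or factor, so no test between groups was possible. The promoter that drove the tagged gene, and any Fer2 allele beside it, are not given in the labels. The authors' lists hold 30000 peaks for each replicate, 30000 for the pooled reads and 2862 that passed their threshold of irreproducibility (the thresholded list). Strength is the signal value that the authors' caller gave. Its scale is unknown, so peaks were ranked within a list only. In whole embryos, binding in few cells and weak binding in many cells cannot be told apart. Peak lists hold no expression values, so the labelled stage could not be compared with marker genes.

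Glycolysis splits glucose into pyruvate. In its early steps hexokinase, phosphoglucose isomerase, phosphofructokinase, aldolase and triose phosphate isomerase use ATP to prime and split the sugar, and in its late steps glyceraldehyde-3-phosphate dehydrogenase, phosphoglycerate kinase, phosphoglycerate mutase and enolase return ATP and reduced cofactor. In the fly embryo these genes are known to be raised together by the nuclear receptor ERR before larval growth. Basic helix-loop-helix factors as a class bind the E-box, CANNTG.

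The stretches around the strongest summits beside the genes' own transcription start sites (TSSs) are shown because the results on position and base content turn on them. Each is on the coding strand of its gene and reads 5′ to 3′, with the summit at base 51. The sequence is that of the NCBI RefSeq Release 6 assembly (dm6). Capitals mark matches to the words searched, on either strand. The 51 bases of the peak ranked 513 stop at the summit because an annotated exon begins there.
Gapdh2 (rank 11, 155 bp upstream of its TSS, chrX:15867940-15868040, plus strand): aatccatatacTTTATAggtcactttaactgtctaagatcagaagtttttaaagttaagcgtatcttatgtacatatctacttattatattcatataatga
Eno (rank 92, 276 bp upstream of a TSS, chr2L:1727943-1728043, minus strand): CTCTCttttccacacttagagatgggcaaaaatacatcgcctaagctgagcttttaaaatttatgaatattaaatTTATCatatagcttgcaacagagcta
Hex-A (rank 111, 161 bp upstream of its TSS, chrX:9585464-9585564, plus strand): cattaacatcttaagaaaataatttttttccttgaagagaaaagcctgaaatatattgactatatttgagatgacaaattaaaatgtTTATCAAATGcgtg
Pgk (rank 513, 306 bp upstream of a TSS, chr2L:2748793-2748843, minus strand): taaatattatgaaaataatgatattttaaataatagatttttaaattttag
Pgk (rank 1288, 252 bp upstream of a TSS, chr2L:2750349-2750449, minus strand): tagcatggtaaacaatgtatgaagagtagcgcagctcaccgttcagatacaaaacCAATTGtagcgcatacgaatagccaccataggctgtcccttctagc

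The strongest of these summits had no E-box within 50 bp. The Gapdh2 window held, of the words searched, a single reversed TATAAA, which began 39 bp before the summit. The Eno window held GAGAG and GATAA in reverse and no E-box, and that of Pgk ranked 513 held none of the words over its full 101 bases. The Hex-A window held an E-box, CAAATG, near its right edge, 41 bp past the summit, and it overlapped a reversed GATAA. In the Pgk window ranked 1288 an E-box, CAATTG, began 5 bp past the summit.

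Thresholded peaks lay at 6 of the 10 genes, and at 5 of them within 500 bp of a TSS of the gene itself. The shares over all protein-coding genes were 28.2% by the 2 kb rule, while 15.9% had one within 500 bp of an own TSS. Because the genes were chosen through a strong peak at Gapdh2, and have a larger median length (3654.5 bp against 2166 bp) and more annotated starts (median 2 against 1), these shares are given side by side without a test. Gapdh2, Pgk, Eno, Hex-A and Pgi had a peak at their own start. Pglym78 had a thresholded peak only beside a neighbour, and Gapdh1, Pfk, Ald1 and Tpi had none. In the weaker lists peaks were common at all genes: each of the 10 had a pooled summit by the same rule (75.6% of all genes), a replicate 2 summit (76.9%) and a replicate 3 summit (79.8%). A pooled summit lay within 500 bp of an own TSS in 9 of the 10 (49.6% of all genes), Gapdh1 being the exception.

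**Figure D1:**
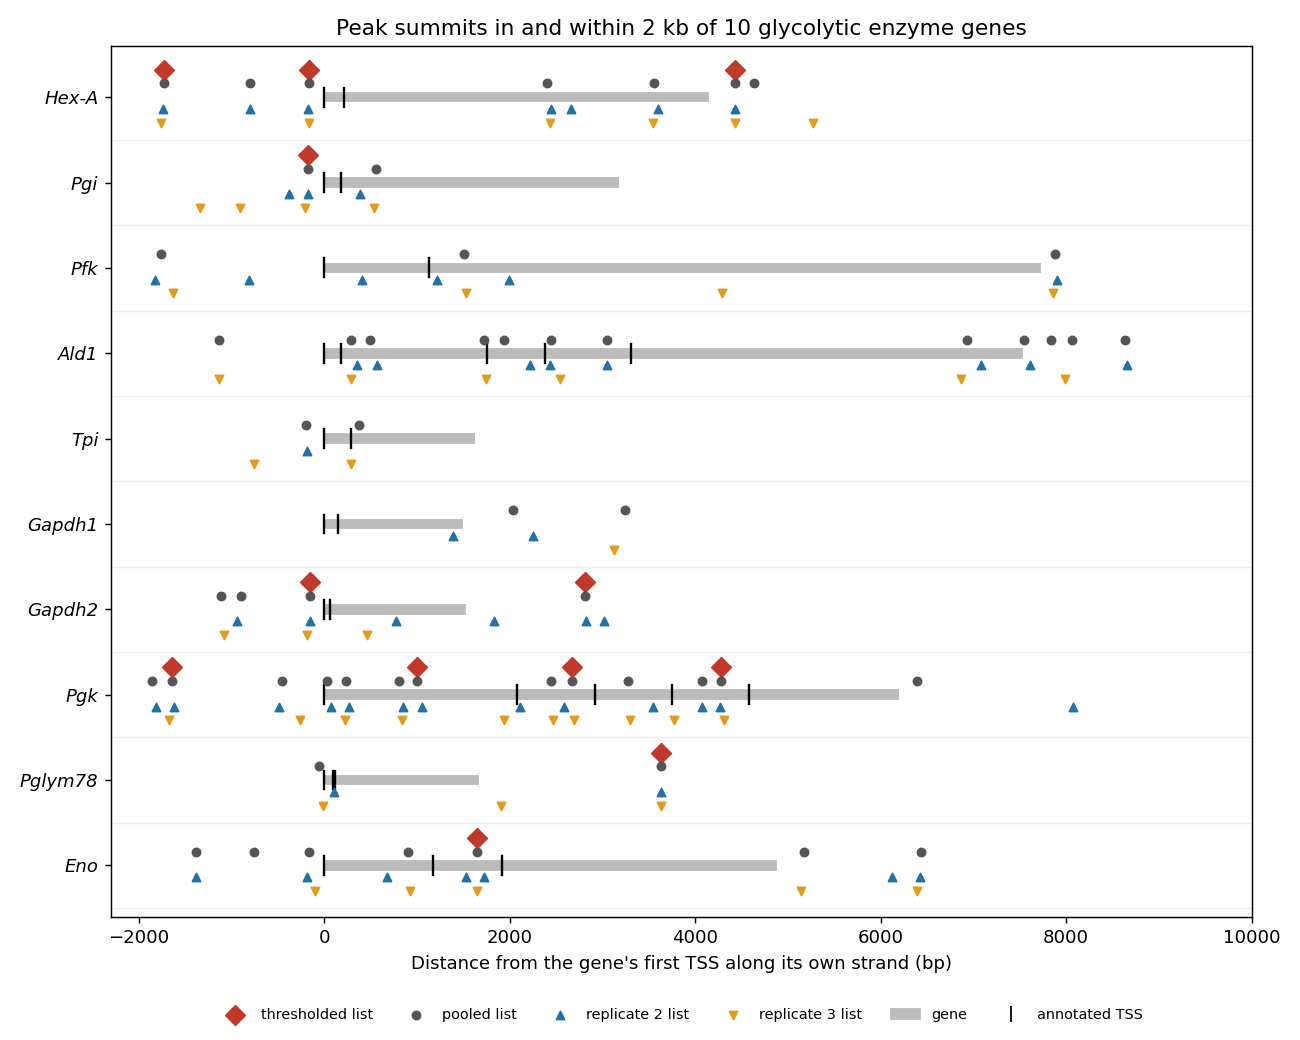
Summits of the 4 peak lists in and within 2 kb of each gene, plotted by distance in bp from the gene's first TSS along its own strand; grey bars are genes and black ticks annotated TSSs. The 12 thresholded summits (diamonds) lie at 6 genes, and those of Eno and Pgk that are near an own TSS lie inside the gene, ahead of later starts.

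Hex-A encodes the main hexokinase, which phosphorylates glucose to open the pathway. The gene (FBgn0001186, X 9585675 to 9589813, plus strand) carried 3 thresholded peaks, and with Pgk it was among the 2 of 10 with 3 or more, as were 1.49% of all protein-coding genes. The strongest had a signal value of 465.7 (rank 111, X 9585278 to 9585654), and its summit lay 161 bp upstream of the TSS. In the single replicates the peak there ranked 81 (signal value 235.5) in replicate 2 and 143 (233.2) in replicate 3. The promoter of Hex-A was thus among the strong sites of both replicates. A further peak 1725 bp upstream, of signal value 246.4 (rank 419), was nearer to the non-coding gene lncRNA:CR45541, 227 bp upstream of its start. It ranked 490 in replicate 2 and 462 in replicate 3. The weakest, at 99.8 (rank 1956), lay 286 bp past the 3' end, in an exon of lncRNA:CR45542. Only the peak at the promoter was close to a start of Hex-A itself.

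Pgi, phosphoglucose isomerase, turns glucose-6-phosphate into fructose-6-phosphate. The gene (FBgn0003074, 2R 8910900 to 8914069, minus strand) had 1 thresholded peak, 180 bp upstream of its TSS, with a signal value of 93.7 (rank 2142, 2R 8914064 to 8914433). It ranked 1893 in replicate 2 and 3245 in replicate 3. This was the weakest thresholded peak of the set, and in replicate 3 its rank lay below 2862, the number of thresholded peaks. Its summit lay between the starts of Pgi and of lin, a gene on the other strand, and was nearer to that of Pgi. A weaker replicate 2 summit 385 bp upstream of Pgi (rank 10521) was 70 bp upstream of lin. Pfk encodes phosphofructokinase, the committed and regulated step. It had no thresholded peak, and its highest pooled peak, of signal value 54.1 (rank 4431), lay past its 3' end at the promoter of dmpd. At its own starts the pooled list held only a summit 376 bp downstream, at rank 21626.

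Ald1, aldolase, splits the phosphorylated sugar, and Tpi interconverts the resulting trioses. Ald1 (FBgn0000064, 3R 26254069 to 26261591) had 5 annotated starts and 12 pooled summits, 6 of them within 500 bp of a start, yet none passed the threshold. Its highest pooled peak had a signal value of 37.3 (rank 7571), 318 bp downstream of a start but nearer to that of the antisense gene asRNA:CR44321. Its highest peak in replicate 2 (rank 3902) lay 179 bp downstream of a start, and that in replicate 3 (rank 4519) was 460 bp past the 3' end. The highest peaks of the replicates were thus at different places. Tpi (FBgn0086355, 3R 30132981 to 30134599) had its highest pooled peak 195 bp upstream of its TSS, with a signal value of 23.9 (rank 15173). A replicate 2 summit lay 186 bp upstream, at rank 12145, while the replicate 3 summits were 755 bp upstream (rank 23630) and at a start (rank 21857). No peak at the steps from phosphofructokinase to the trioses was in the thresholded list.

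**Figure D2:**
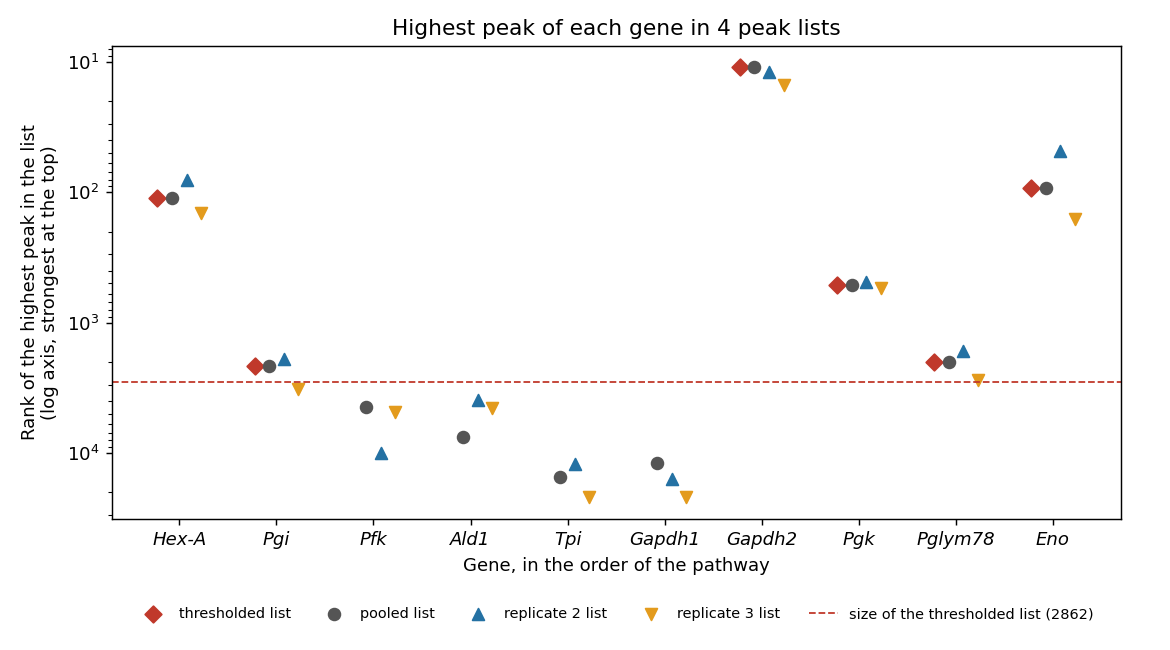
Rank of the highest peak of each gene in each list (log axis, strongest at the top), with genes in the order of the pathway; the dashed line marks the 2862 peaks of the thresholded list. Gapdh2, Eno, Hex-A and Pgk rank highest in every list, and Pfk, Ald1, Tpi and Gapdh1 lie below the line in all.

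The 2 genes for glyceraldehyde-3-phosphate dehydrogenase, the enzyme that makes the first reduced cofactor of the pathway, are described side by side. Gapdh2 (FBgn0001092, X 15868145 to 15869661, plus strand) had the peak by which the set was chosen, with a signal value of 1110 in the thresholded list (X 15867788 to 15868172). It ranked 12 in replicate 2 (signal value 505.6) and 15 in replicate 3 (607.2). The summits of the replicates lay 30 bp apart. These ranks come from the reads by which the set was chosen and are given as a description. Gapdh1 (FBgn0001091, 2R 7791901 to 7793380, minus strand) had no summit of any list within 500 bp of its TSSs. Its highest pooled peak had a signal value of 27.5 (rank 11968) and lay past its 3' end, at the promoter of CG12824. In replicate 2 its highest peak ranked 15959 and in replicate 3 21825. No peak of the lists was thus at a start of Gapdh1, while nothing is read from the difference in rank, since the choice of the set fixed that of Gapdh2.

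A weaker thresholded peak of Gapdh2, of signal value 137.1 (rank 1196, X 15870772 to 15871141), was not at its promoter. It lay 1296 bp past the 3' end, in an intron of CG16952 and 774 bp downstream of that gene's TSS. It ranked 1003 in replicate 2, but no replicate 3 peak overlapped it, and the nearest replicate 3 summit was 2353 bp away. Of the 2862 thresholded peaks, 8 lacked an overlapping replicate 3 peak. This site is therefore seen in only 1 of the replicate lists.

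Pgk, phosphoglycerate kinase, makes the first ATP of the late steps. The gene (FBgn0250906, 2L 2746880 to 2753068, minus strand) has 5 annotated starts and had 4 thresholded peaks, the most of any of the 10. The strongest, with a signal value of 221.7 (rank 513, 2L 2748667 to 2748910), lay 306 bp upstream of the start farthest into the gene. It ranked 496 in replicate 2 and 538 in replicate 3. Another of 130.8 (rank 1288) lay 252 bp upstream of the third start, and ranked 1359 and 1188 in replicates 2 and 3. Both were inside the gene, ahead of internal starts. The other 2 were nearer to Bacc, which overlaps the 5' end of Pgk on the other strand. The summit of signal value 171.4 (rank 843) was 379 bp upstream of the nearest Bacc start and 1002 bp downstream of the first start of Pgk. That of 181.9 (rank 749) was in an intron of Bacc, 1646 bp upstream of Pgk. No thresholded summit lay within 500 bp of the first start of Pgk, where pooled summits ranked 3462 and lower. In replicate 2 a summit 269 bp downstream of that start ranked 1722 (signal value 50.8), and in replicate 3 the summit at 228 bp ranked 6695 (24.2), both nearer to a start of Bacc. The highest pooled peaks of the set that missed the threshold were both in the range of Pgk, at ranks 3235 (68.5) and 3462 (65.0). Their summits were also nearer to Bacc, 178 bp upstream and 31 bp downstream of its nearest start.

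Pglym78, phosphoglycerate mutase, moves the phosphate group before the enolase step. The gene (FBgn0014869, 3R 29148248 to 29149901, plus strand) was in the range of 1 thresholded peak, of signal value 98.1 (rank 2004, 3R 29151694 to 29152063), whose summit was 1978 bp past its 3' end. That summit was just inside the 2 kb limit, and it lay 85 bp upstream of the neighbour eIF2D. At the own start of Pglym78 there was a pooled summit 54 bp upstream, with a signal value of 48.2 (rank 5218), nearer to the neighbour CG11882. Replicate 2 had a summit 7 bp downstream of a start (rank 6087) and replicate 3 had 1 at 15 bp upstream (rank 5791). The start of Pglym78 thus had a peak in each replicate that was below the threshold. The nearest thresholded summit beyond 2 kb at any of the 10 genes was 3457 bp past the 3' end of Pgi, at rank 2627.

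Eno, enolase, makes phosphoenolpyruvate. The gene (FBgn0000579, 2L 1724768 to 1729636, minus strand) had 1 thresholded peak, of signal value 503.4 (rank 92, 2L 1727732 to 1728089). It lay in an intron, 276 bp upstream of the third annotated start, which is 1919 bp into the gene. The summit was also within 500 bp of the second start, 1173 bp into the gene, and downstream of that start. In replicate 2 the highest peak there ranked 48 (signal value 284.1) and in replicate 3 161 (216.8), with summits 82 bp apart. Upstream of the first start of Eno, the pooled list held a summit at 167 bp with a signal value of 36.2 (rank 7905), nearer to the start of CG31937. The thresholded peak of Eno was thus at an internal start, and at the first start there was none.

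**Figure D3:**
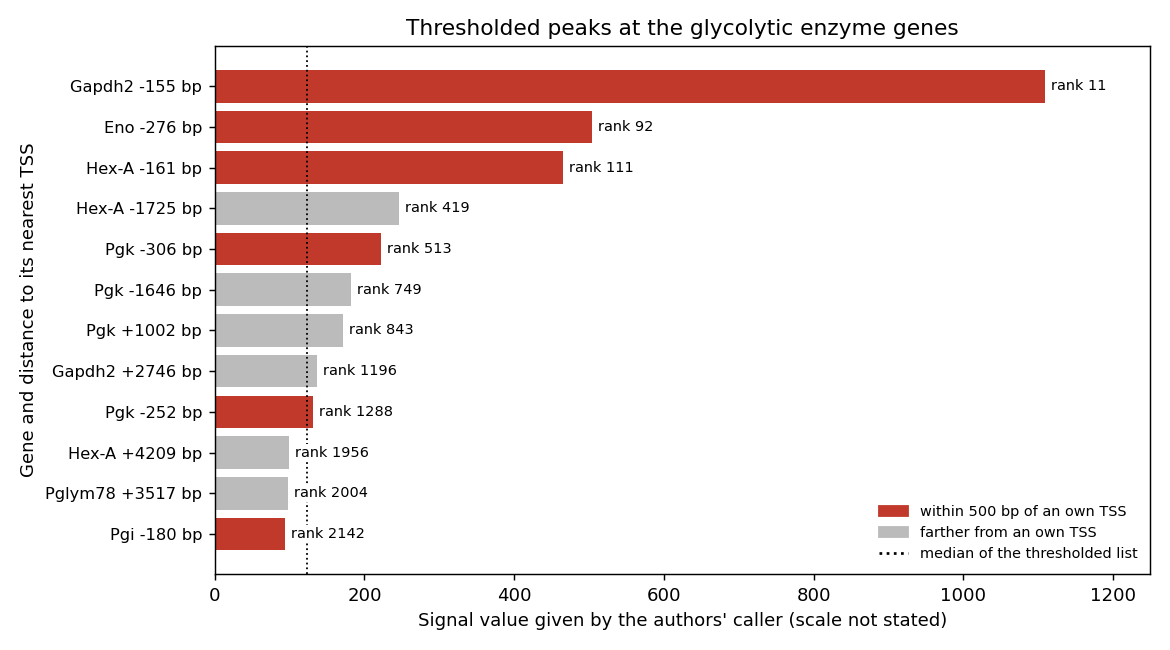
Signal value of the 12 thresholded peaks at the genes, labelled by distance to the nearest TSS of the gene (negative upstream) and by rank; the dotted line is the median of the thresholded list, 122.7. The peaks near an own TSS (red) of Gapdh2, Eno and Hex-A are the 3 highest, and that of Pgi is the lowest.

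All 6 thresholded summits within 500 bp of an own TSS lay upstream of the nearest one, at 155 to 306 bp. That of Eno was also within 500 bp of its second start, on the downstream side. In the thresholded list as a whole, 85.1% of the 1597 summits within 500 bp of a protein-coding TSS lay upstream, at a median of 118 bp upstream, and 37.3% were 150 bp or more upstream. The other 6 summits in the range of these genes were nearer to the start of another gene.

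Both replicates held nearly all of these peaks. The thresholded list was derived from the replicate and pooled lists, so this overlap was largely given by how it was made. Of the 12 thresholded peaks, 11 were overlapped by a peak of each replicate, against 2845 of 2862 (99.4%) in the list as a whole. At those 11 the replicate summits lay a median of 31 bp apart (range 3 to 211), against a median of 35 bp (quartiles 15 and 63) over all such peaks. The widest gap, 211 bp, was at the Pgk peak of rank 843, where replicate 2 ranked 484 and replicate 3 ranked 1220. At 9 of the 11 the rank was higher in replicate 2, against 47.0% of the 2845; this difference was not tested, and several of the 11 lie at the same gene. Both replicate lists were called against the same control alignment, which is not analysed here.

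The summits were AT-rich, as in the list as a whole. Within 50 bp of the 12 summits the GC content ran from 22.8% to 45.5% with a median of 28.7%, against a median of 30.7%, a mean of 32.4% ± 9.30 (SD over 2862 peaks) and quartiles of 25.7% and 37.6% for all thresholded peaks. It was 24.8% at the promoter peaks of Gapdh2 and Hex-A, 23.8% at Pgi and 32.7% at Eno. In 9 of the 12 it was lower than 250 bp to either side, as in 64.7% of all thresholded peaks. The Pgk summit of rank 1288 was the highest of the 12, at 45.5%.

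The 12 words were searched on both strands, and E-boxes were in 5 of the 12 windows, against 32.4% of all thresholded windows of the same length. The 27138 other pooled peaks, all of lower rank, had an E-box in 40.7%. At the genes the E-boxes were at the weaker peak of Gapdh2, at Pgk ranked 749 and 1288, and at Hex-A ranked 111 and 1956. Of the E-box forms searched alone, CATATG was at the weaker Gapdh2 peak (4.30% of all windows), CAGCTG at Hex-A ranked 1956 (3.07%), and CACGTG at none (0.804%). GATAA was in 6 windows (25.7% of all), TATAAA in 2 (25.5%), GAGAG in 2 (8.67%), TAATTA in 1 (11.5%) and CGATA in 1 (15.5%). TATCGATA (1.64%), which contains CGATA, was in none. Neither AAGGTCA (0.734%), the type of site bound by nuclear receptors such as ERR, nor ACGTG (6.36%), the core bound by hypoxia factors and part of CACGTG, was in any window. With 12 windows, some of them at the same gene, these counts describe the genes only.

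The same counts were made for genes of the pathways that feed or drain glycolysis. Of 60 further genes found in the annotation, 30 (50%) had a thresholded summit by the 2 kb rule, against 28.2% of all protein-coding genes. A thresholded summit lay within 500 bp of an own TSS in 24 (40%), against 15.9%. These differences were not tested, and the lists were chosen with earlier results of these data known. The lengths and numbers of starts of the 60 genes were not compared with those of all genes. Single lists hold few genes, and each count below is to be read against the 28.2%. Among the late and side enzymes of glycolysis 3 of 9 (33.3%) had a peak, a share near that of all genes. Ldh, lactate dehydrogenase, had 1 at 186 bp upstream of its start (signal value 396.5, rank 157), and PyK, pyruvate kinase, had 1 at 398 bp upstream of a start (117.3, rank 1542). The peak in the range of Hex-C, at rank 2, lay past its 3' end at the promoter of mRpL41. The hexokinase copies Hex-t1 and Hex-t2 had none. Of the 9 genes, only Ldh and PyK had a peak within 500 bp of an own TSS.

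Of 8 genes of glycogen and trehalose, 4 (50%) had a peak. Glyp, glycogen phosphorylase, ranked 139 with a signal value of 415.9 at 171 bp upstream of its start. Pgm1, phosphoglucomutase, ranked 996 and Pgm2a 1855, at 106 and 109 bp upstream. The peak in the range of Treh, trehalase, at rank 201, was nearer to CG10527. Glys and AGBE, which build glycogen, had none. In the pentose phosphate pathway 3 of 5 (60%) had a peak, namely Zw, glucose-6-phosphate dehydrogenase (rank 435, nearer to asRNA:CR44512), Rpe (rank 2003) and Taldo, transaldolase (rank 2261), while Pgd and Rpi had none. In gluconeogenesis with Pfrx, which sets fructose-2,6-bisphosphate, 3 of 5 (60%) had a peak. These were PCB, pyruvate carboxylase (rank 728, nearer to asRNA:CR44293), Pepck2 (rank 1757, in an intron 1741 bp downstream of a start) and Pfrx (rank 2043). In this list fbp and Pepck1 had none. Of the 6 genes of the glycerol-3-phosphate shuttle only Gpdh1 (16.7%) had a peak, 23 bp downstream of its start (rank 1605), and Gpdh2 and Gpdh3 had none.

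Of 19 genes of pyruvate dehydrogenase and the citrate cycle, 11 (57.9%) had a peak, led by Idh3g, a subunit of isocitrate dehydrogenase (signal value 408.6, rank 147, 120 bp upstream of its start). Fum1, fumarase, ranked 320 at a summit nearer to ND-ASHI, kdn, citrate synthase, 690 and Pdp 717. The kdn summit was in an intron, 1515 bp downstream of a start, and a weaker thresholded peak lay within 500 bp of a kdn start. Pdha and Idh3a had no thresholded peak. Of 8 regulators of carbohydrate metabolism genes, 5 (62.5%) had a peak, led by ERR (rank 502), bigmax (rank 801), sima, the hypoxia factor (rank 871), and Hnf4 (rank 1094). The summit of ERR lay 168 bp upstream of its start but nearer to Atg18a, and that of bigmax was nearer to Hmu. That of sima was in an intron, 6736 bp upstream of the nearest sima start. Mondo and tgo had none.

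**Figure D4:**
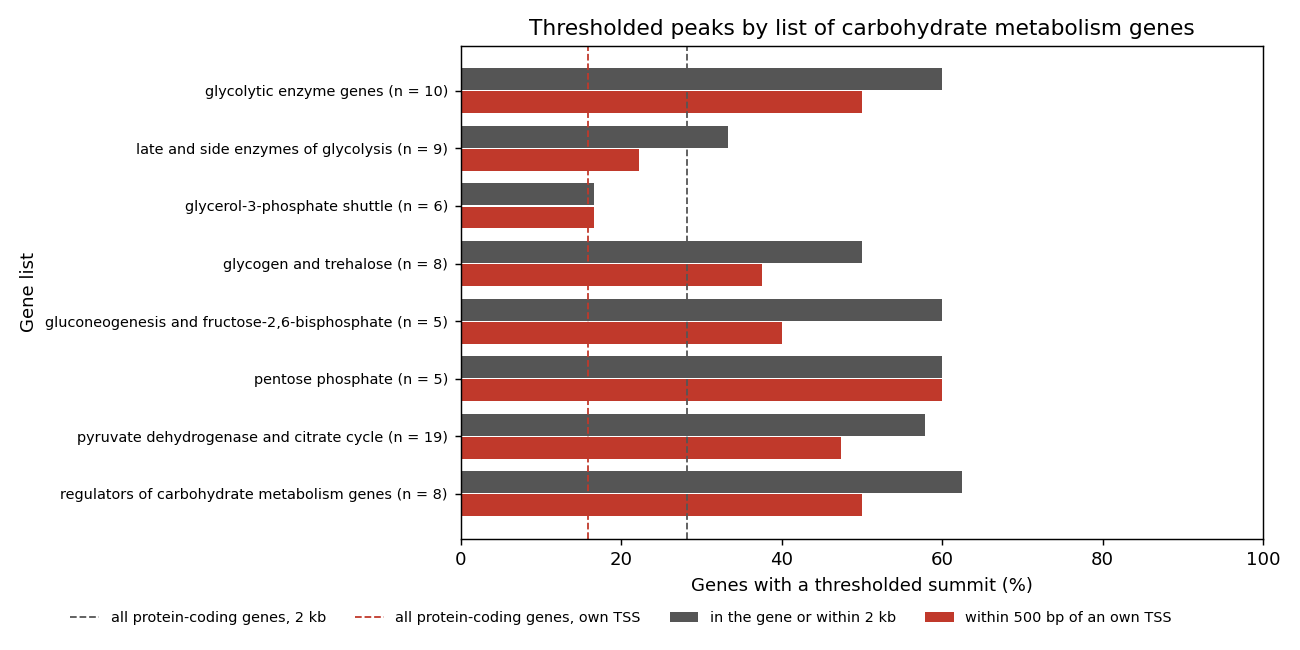
Share of genes (%) with a thresholded peak by the 2 kb rule (grey) or within 500 bp of an own TSS (red), for the 10 glycolytic enzyme genes and 7 lists of related genes; dashed lines give the same shares for all protein-coding genes, 28.2% and 15.9%. The lists hold 5 to 19 genes each, and the share by the 2 kb rule is below the dashed line only for the glycerol-3-phosphate shuttle.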

How the data were processed

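ChIP-seq peak lists from 2 biological replicates of Fer2-GFP embryos were used, with 1 group and no control sample among the samples. Per the deposited text files, the authors made a peak list for each replicate and for the pooled alignments against the same control alignment, and derived the thresholded list from the other 3. For the peak caller, its settings and the threshold, nothing is given in the sources used here. The authors deposited a signal value per peak, a score of unstated scale, used only to rank peaks within a list. They also deposited the −log10 of a q-value, which was the same for all thresholded peaks and was not used for ranking, and a summit position. Read counts are absent from the lists, so sample depth is unknown and no counting interval can be given.

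Summits were assigned with Python 3.11.15, pandas 2.3.3 and numpy 2.4.6 to genes of Ensembl release 115 on the same assembly (dm6), without transposable elements. Coordinates are 1-based. A distance to a start is to the nearest annotated TSS of the gene named, unless another of its starts is stated. Promoter locations and nearest genes refer to the TSSs of all genes. Older symbols were matched through RefSeq synonyms. Listed genes that matched no single annotated gene were left out. Assignment and word search were tested on simulated data. No test was run. All 10 genes are named, with the gene nearest to a peak where it is another, and in each further list up to 4 genes with the highest peak and 2 without. The genes and lists were chosen with earlier results of these data known. Alternatives changed the distance, threshold, replicate, window and overlap.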

Additional observations from a re-analysis of the deposited data

How the results depend on the processing

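In brackets are the shares of all protein-coding genes under the same setting. Of the 10 genes, 6 (28.2%) had a thresholded peak by the 2 kb rule. With gene bodies only, where peaks upstream of the first start are left out, the count was 2 (8.42%), Pgk and Eno. With every pooled peak the count was 10 (75.6%). It was 5 within 1 kb (23.1%), 6 within 5 kb (39.8%), 4 with the 1431 highest thresholded peaks (17%) and 5 when a peak went to the nearest coding start only (16.4%). With the 2862 highest peaks of a single replicate list it was 5 to 6, with 5 (28.5%) without replicate 2 and 6 (27.2%) without replicate 3; in the former Pgi was lost. Peaks near an own TSS were at 5 genes (15.9%), at 3 within 250 bp (12.8%), and at 4 to 5 with a single replicate list (16.1% and 15.2%). Among the 60 further genes, 30 had a peak (28.2%), 17 with gene bodies only (8.42%), 19 with the 1431 highest peaks (17%), 36 within 5 kb (39.8%), and 30 to 31 with a single replicate list. E-boxes were in 5 of the 12 windows (32.4% of all thresholded windows), in 2 within 25 bp of the summit and in 9 within 100 bp. The shares of all thresholded windows at 25 bp and 100 bp were not counted. A longer window can only gain E-boxes, so the counts at 25 bp and 100 bp show nothing particular to these genes. Peaks of both replicates met the rule of 1 bp of overlap at 11 of the 12 peaks, and either stricter rule at 10. The depth of the libraries is unknown, so a gene with no thresholded peak is not shown to lack binding.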
